A study of Mus musculus with 12 samples.

Results

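The genes described here are 10 genes that encode proteins needed to fold, modify and process collagen: Serpinh1, P4ha1, P4ha2, P4ha3, Plod1, Plod2, Plod3, Crtap, Colgalt1 and Pcolce. They were taken by symbol from the 54134 genes listed in the raw count table, where each symbol had 1 gene ID. Of these 10 genes, 9 passed the filter on low counts and were tested among 15585 genes in all; P4ha3, with 1 to 10 reads per mouse, was not. Members were chosen by what their products do, with earlier results of these data known.

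Gene expression was measured by RNA-seq in inguinal white adipose tissue (iWAT) of 12 male C57BL/6J mice, 1 sample per mouse. The 6 AAV-GFP mice received an adeno-associated virus that expresses green fluorescent protein and the 6 AAV-Notum mice one that expresses mouse Notum, a secreted enzyme that removes the lipid group Wnt proteins need for signaling. Both transgenes were driven by the thyroxine binding globulin promoter, which restricts them to liver, so iWAT was not the tissue the virus was meant to express in. All mice were injected at 8 weeks of age, ate chow for 4 weeks and were fasted for 4 h before collection, and all carried a virus, with no untreated mice among the samples. The comparison asks whether the machinery that matures collagen differed in the fat of mice with more NOTUM from the liver.

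Libraries held 14711113 to 21618860 counted reads. The adipocyte markers summed to 23181 to 39017 CPM (counts scaled by the TMM-normalized library size) in AAV-GFP mice and to 19901 to 46627 CPM in AAV-Notum mice, and none of the 8 was at 0. Notum itself had 1 to 17 reads in AAV-GFP mice, 8 to 16 reads in 4 AAV-Notum mice, 560 reads in AAV-Notum mouse S_2032 and 433 in mouse S_2041. The 12 lymphoid markers, B and T cell genes of which none was at 0 in all mice, set AAV-GFP mice S_2011 and S_2014 apart from the other mice, with a mean of -0.02 and -0.58 log2 CPM. AAV-GFP mouse S_2012 had 3.82, and the other 9 mice 5.13 to 7.18. The summed lymphoid level ran from 7.63 to 1475 CPM in AAV-GFP mice and from 475 to 2065 CPM in AAV-Notum mice. RNA of AAV-GFP mouse S_2012 was isolated 22 days after collection and that of the other 11 mice 2 days after, and the RNA integrity number (RIN) ranged from 5.7 to 7.6 among the AAV-GFP libraries and from 6.9 to 7.4 among the AAV-Notum libraries. Changes of the members and gene lists are therefore also given without mice S_2011 and S_2014 and with the lymphoid score as a covariate; differences between paralogs and changes relative to collagen are also given without these mice, and likeness between genes for all mice only. In whole tissue, fewer cells of a type and less RNA per cell cannot be told apart.

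Collagen chains are made in the endoplasmic reticulum (ER), where they are hydroxylated and glycosylated before and while they wind into a triple helix. Prolyl hydroxylation stabilizes the helix, and hydroxylation of lysines, with or without sugars added to them, sets which cross-links can form once the collagen is outside the cell. The chaperone encoded by Serpinh1 binds the finished helix on its way out, and the propeptides at both ends are cut off by extracellular proteinases before fibrils form. Adipose tissue holds a collagen network around each adipocyte, and its fibroblasts and progenitors are known as the main source of fibrillar collagen.

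None of the 9 tested members passed the threshold of an adjusted p under 0.05 in edgeR's quasi-likelihood test, where 0.0513% of all tested genes did (8 genes). The smallest adjusted p among the members was 0.141, that of Serpinh1. By direction, 8 members were lower in AAV-Notum mice and only Colgalt1 was higher. At an unadjusted p under 0.05, 6 members were lower (Serpinh1, P4ha1, P4ha2, Pcolce, Plod1 and Plod3), beside 9.54% of all tested genes, and 0 were higher, beside 4.64% of all tested genes. The median log2 fold change (AAV-Notum over AAV-GFP) of the 9 members was -0.44, and that of all 15585 tested genes 0.01. The members' median was -0.30 without mice S_2011 and S_2014 and -0.20 with the lymphoid score as a covariate. In no member did all AAV-Notum mice lie below all AAV-GFP mice, as 0.693% of all tested genes did. With DESeq2 in place of edgeR, 3 members had an adjusted p under 0.05 (Serpinh1 0.0131, P4ha2 0.0205 and P4ha1 0.0211), all lower, beside 2.32% of the genes to which DESeq2 gave an adjusted p.

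**Figure D1:**
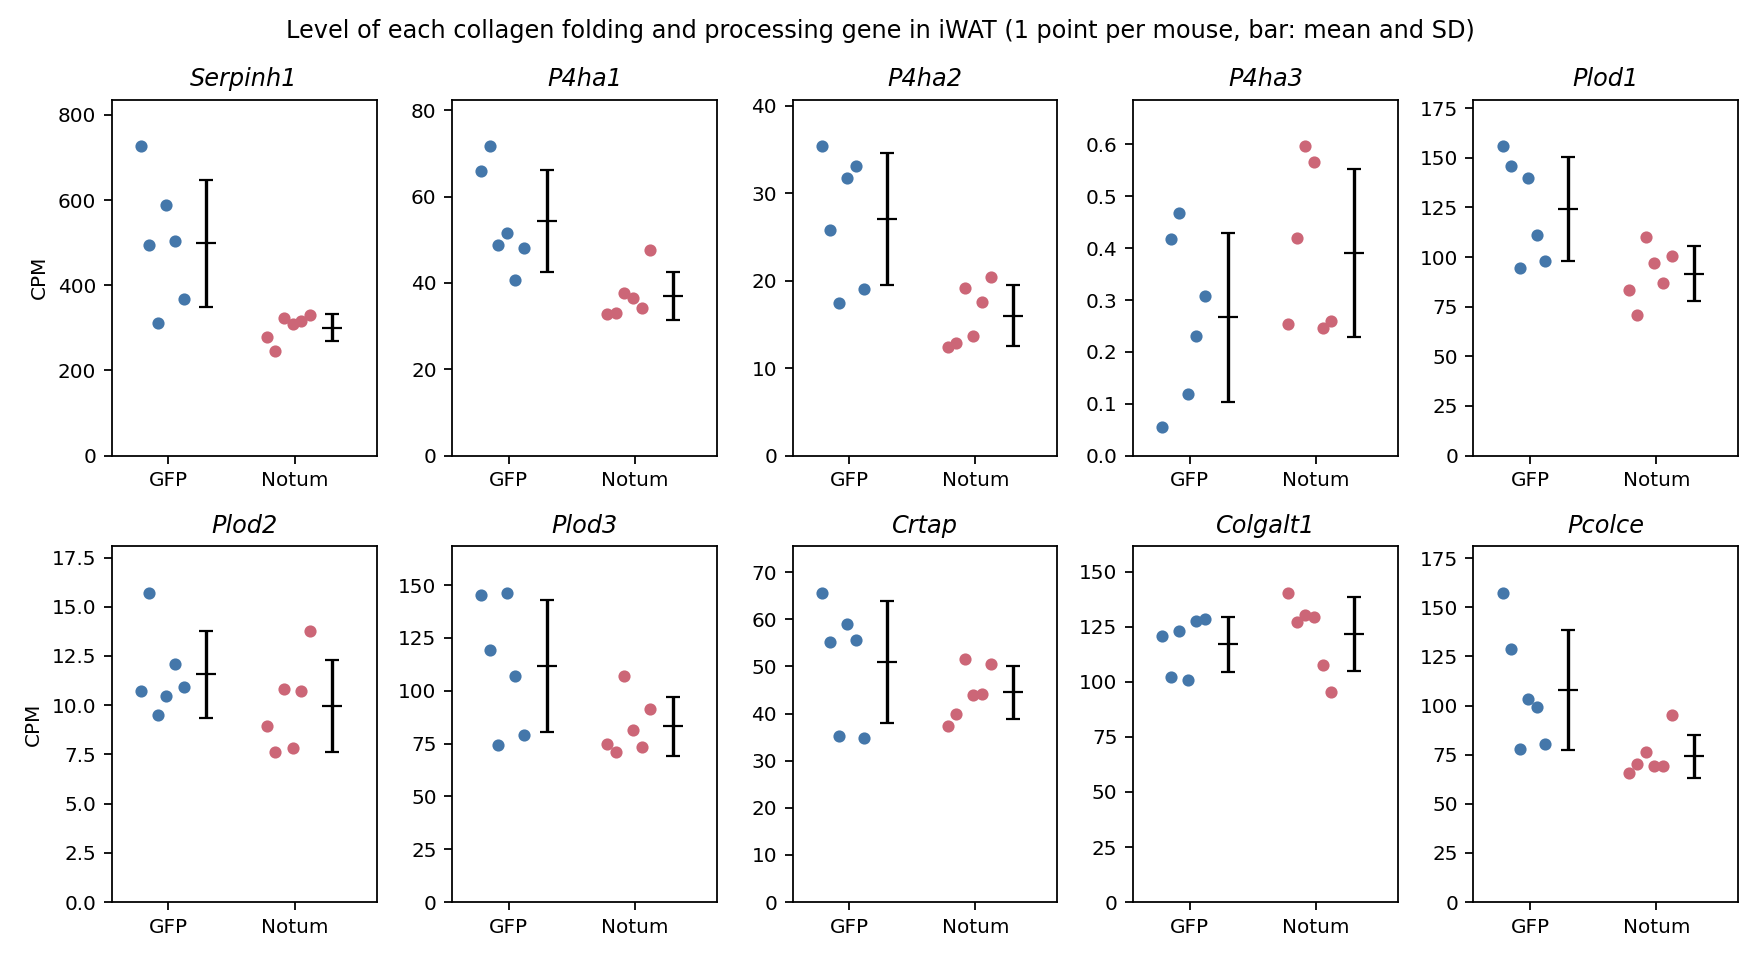
Level of each of the 10 genes in CPM (vertical axes, linear from 0, 1 scale per gene) in 6 AAV-GFP and 6 AAV-Notum mice, 1 point per mouse, with a dash and bars for the mean and SD. The AAV-GFP mice spread more widely than the AAV-Notum mice for Serpinh1 (311 to 727 against 246 to 330.5 CPM), and the groups overlap for all 10 genes.

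Serpinh1 (ENSMUSG00000070436, chr7:99345376-99353239, minus strand, GRCm38) encodes HSP47, the collagen-specific chaperone of the ER. Its level was lowest at 311, median 498 and highest at 727 CPM in AAV-GFP mice, and lowest at 246, median 312 and highest at 330.5 CPM in AAV-Notum mice. Only AAV-GFP mouse S_2013, the one at 311 CPM, lay within the range of the AAV-Notum mice. The group means were 498 ± 150.0 CPM (SD, n = 6) and 301 ± 32.3 CPM (SD, n = 6). The fitted AAV-Notum level was 0.603 times the AAV-GFP level, a log2 fold change of -0.73 (standard error 0.18, 95% interval -1.13 to -0.33, adjusted p = 0.141 from edgeR, exact permutation p = 0.00866, two-sided). The estimate was -0.48 without mice S_2011 and S_2014 (unadjusted p = 0.00980) and -0.39 with the lymphoid score as a covariate (unadjusted p = 0.0113). Serpinh1 had the highest level per kilobase of exon of all 10 members, 204 ± 61.4 RPKM in AAV-GFP and 123 ± 13.2 RPKM in AAV-Notum mice (SD, n = 6 each).

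P4ha1 and P4ha2 encode alternative catalytic alpha subunits of collagen prolyl 4-hydroxylase, the enzyme that hydroxylates the prolines that stabilize the helix. P4ha1 (ENSMUSG00000019916, chr10:59323296-59373304, plus strand) ran from 40.7 through a median of 50.1 to 71.7 CPM in AAV-GFP mice and from 32.8 through 35.4 to 47.6 CPM in AAV-Notum mice. Apart from mouse S_2042, at 47.6 CPM, the AAV-Notum mice lay below the whole AAV-GFP range. Its means were 54.4 ± 11.8 and 37.0 ± 5.56 CPM (SD, n = 6 each), and the log2 fold change was -0.56 (standard error 0.14, 95% interval -0.87 to -0.24, adjusted p = 0.151 from edgeR, exact permutation p = 0.00433). Without mice S_2011 and S_2014 it was -0.50 (unadjusted p = 0.00863), and with the lymphoid score as a covariate -0.39 (unadjusted p = 0.0167).

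P4ha2 (ENSMUSG00000018906, chr11:54100095-54131665, plus strand) had the lowest point estimate of the members. It ran from 17.5 through 28.7 to 35.4 CPM in AAV-GFP mice and from 12.4 through 15.6 to 20.4 CPM in AAV-Notum mice. In AAV-GFP mice S_2013 and S_2022 its level, 17.5 and 19.0 CPM, lay inside the AAV-Notum range, and the other 4 AAV-GFP mice were above it. The means were 27.1 ± 7.55 and 16.0 ± 3.47 CPM (SD, n = 6 each), with a log2 fold change of -0.76 (standard error 0.20, 95% interval -1.20 to -0.32, adjusted p = 0.152 from edgeR, exact permutation p = 0.0195). It was -0.58 without mice S_2011 and S_2014 (unadjusted p = 0.0191) and -0.49 with the lymphoid score (unadjusted p = 0.0183).

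P4ha3 (ENSMUSG00000051048, chr7:100285520-100319699, plus strand) encodes the third alpha subunit. It had 0.266 ± 0.163 CPM in AAV-GFP and 0.390 ± 0.162 CPM in AAV-Notum mice (SD, n = 6 each), from 68 reads over all 12 mice. Its groups overlapped, and its change was not tested. Among the prolyl 4-hydroxylase alpha subunits, compared per exon length, P4ha1 made up 74.8 ± 6.16% of the summed level in AAV-GFP and 77.1 ± 2.46% in AAV-Notum mice (SD, n = 6 each). P4ha2 made up 24.7 ± 6.35% and 21.8 ± 2.51%, and P4ha3 0.511 ± 0.333% and 1.08 ± 0.453%.

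The promoter sequences of the 3 members with the smallest p-values, Serpinh1, P4ha1 and P4ha2, are shown because the data bear most on these genes and because prolyl 4-hydroxylase subunits are known hypoxia-induced genes. Each is the 250 bases before a RefSeq transcript start on GRCm38.p6, 5′ to 3′ on the strand of the gene, with the 5-base cores of the hypoxia response element, ACGTG or GCGTG, in capitals where they occur on either strand (CACGT and CACGC are the same cores on the other strand).
Serpinh1, chr7:99353240-99353489, minus strand: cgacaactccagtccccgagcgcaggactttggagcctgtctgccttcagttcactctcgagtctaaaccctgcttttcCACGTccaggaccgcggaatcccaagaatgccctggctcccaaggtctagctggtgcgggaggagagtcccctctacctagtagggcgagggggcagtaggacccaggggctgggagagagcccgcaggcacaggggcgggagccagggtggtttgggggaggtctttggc
P4ha1, chr10:59323046-59323295, plus strand: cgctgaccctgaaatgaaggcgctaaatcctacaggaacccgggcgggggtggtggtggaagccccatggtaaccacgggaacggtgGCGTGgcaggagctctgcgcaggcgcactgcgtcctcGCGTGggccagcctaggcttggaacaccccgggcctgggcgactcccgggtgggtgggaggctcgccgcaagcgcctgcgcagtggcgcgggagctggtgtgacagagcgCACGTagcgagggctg
P4ha2, chr11:54100674-54100923, plus strand: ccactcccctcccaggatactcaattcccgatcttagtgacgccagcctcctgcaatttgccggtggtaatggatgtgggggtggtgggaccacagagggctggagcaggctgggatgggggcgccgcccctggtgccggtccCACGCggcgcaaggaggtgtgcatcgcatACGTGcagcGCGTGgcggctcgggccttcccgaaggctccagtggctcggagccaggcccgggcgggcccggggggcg
The P4ha2 window starts inside the GENCODE gene, which begins further upstream than this RefSeq start.

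In these windows Serpinh1 held 1 core, whose first base lay 171 bases before the start. P4ha1 held 3 cores (163, 126 and 16 bases before) and P4ha2 held 3 (107, 78 and 69 bases before). A window was found for 9 of the 10 members in the RefSeq table, all except Plod2. At least 1 core was present for 8 of these 9, all except P4ha3, and in 38.6% of all 32851 promoter windows of this length. ACGTG alone was in 16.6% of all windows and GCGTG alone in 28.2%. Cores were found 4 times in the window of Plod3 and 3 times in that of Crtap, and once each for Plod1 and Pcolce. The windows of the 2 RefSeq starts of Colgalt1, which overlap, held 2 and 1 cores. The Wnt-responsive TCF/LEF core CTTTGAT, searched on both strands, was in 3.21% of all windows and among the members in that of Plod3 only, 9 bases before its start. Exons of another gene cover 208 of the 250 bases of the Plod3 window. Exons of the member itself cover 83 bases of the Pcolce window, and 26 and 170 bases of the Colgalt1 windows. The Pcolce window lies inside the GENCODE gene, and both Colgalt1 windows run past the GENCODE start of that gene. The ER stress response element was in 0.113% of all windows and in no member's window. Such matches are descriptions of these letters in these windows, not of binding.

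Crtap (ENSMUSG00000032431, chr9:114375134-114390675, minus strand) encodes cartilage-associated protein, which forms a complex with the prolyl 3-hydroxylase encoded by P3h1 and the prolyl isomerase encoded by Ppib. Its level ran from 34.8 through 55.5 to 65.7 CPM in AAV-GFP mice and from 37.3 through 44.0 to 51.5 CPM in AAV-Notum mice. AAV-GFP mice lay on both sides of the AAV-Notum range, 4 above it and 2 (S_2013 and S_2022) below it. The means were 50.9 ± 12.9 and 44.5 ± 5.61 CPM (SD, n = 6 each), and the log2 fold change of -0.19 was within the spread between mice (standard error 0.16, 95% interval -0.55 to 0.16, adjusted p = 0.533 from edgeR, exact permutation p = 0.366). It was -0.03 without mice S_2011 and S_2014, -0.11 without S_2011 alone, and 0.07 with the lymphoid score as a covariate, where the direction turned.

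Plod1, Plod2 and Plod3 encode the lysyl hydroxylases. Plod1 (ENSMUSG00000019055, chr4:147909753-147936767, minus strand), whose enzyme acts mainly on lysines of the helical part, ran from 94.7 through 125 to 156 CPM in AAV-GFP mice and from 71.0 through 92.0 to 109.9 CPM in AAV-Notum mice. Of the AAV-GFP mice, 4 were above all AAV-Notum mice. The means were 124 ± 26.2 and 91.5 ± 13.8 CPM (SD, n = 6 each), a log2 fold change of -0.44 (standard error 0.15, 95% interval -0.76 to -0.12, adjusted p = 0.228 from edgeR, exact permutation p = 0.0303). Without mice S_2011 and S_2014 it was -0.30 (unadjusted p = 0.0721), and with the lymphoid score -0.20 (unadjusted p = 0.116), past the unadjusted threshold in neither.

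Plod3 (ENSMUSG00000004846, chr5:136987019-136996648, plus strand), whose enzyme also adds sugars to hydroxylysine, followed Plod1 closely. It ran from 74.3 through 113 to 146 CPM in AAV-GFP mice and from 71.0 through 78.0 to 107 CPM in AAV-Notum mice. Only 3 AAV-GFP mice were above all AAV-Notum mice. The means were 112 ± 31.2 and 83.1 ± 13.8 CPM (SD, n = 6 each), a log2 fold change of -0.43 (standard error 0.18, 95% interval -0.82 to -0.03, unadjusted p = 0.0359 and adjusted p = 0.324 from edgeR). The exact permutation test gave p = 0.0779. The unadjusted p stayed under 0.05 in 5 of the 12 fits that left out 1 mouse, and was 0.0882 without mouse S_2011, 0.0633 without S_2012, 0.0871 without S_2014, 0.0692 without S_2031, 0.0724 without S_2032, 0.0597 without S_2034 and 0.0704 without S_2041. The log2 fold change was -0.19 without mice S_2011 and S_2014, -0.09 with the lymphoid score and -0.32 with RIN as a covariate (unadjusted p = 0.265, 0.513 and 0.106). Of its exon bases, 11.7% are shared with Znhit1, a gene on the other strand, and whether reads were counted by strand is not given in the sources used here.

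Plod2 (ENSMUSG00000032374, chr9:92542223-92608428, plus strand) encodes the lysyl hydroxylase of the telopeptides, the ends of the chains where cross-links start. It was the lowest of the lysyl hydroxylases, from 9.48 through 10.8 to 15.7 CPM in AAV-GFP mice and from 7.65 through 9.82 to 13.8 CPM in AAV-Notum mice. The groups overlapped, with the highest level of each group in mouse S_2012 and mouse S_2042. Its means were 11.6 ± 2.20 and 9.95 ± 2.32 CPM (SD, n = 6 each), and the log2 fold change of -0.22 was within the spread between mice (standard error 0.17, 95% interval -0.58 to 0.15, adjusted p = 0.505 from edgeR, exact permutation p = 0.203). It was -0.28 without mice S_2011 and S_2014 and -0.17 with the lymphoid score, -0.11 without AAV-GFP mouse S_2012, and -0.33 without AAV-Notum mouse S_2042 (unadjusted p = 0.0513). Of its exon bases 6.42% are shared with Gm38391 on the other strand. Per exon length, Plod3 made up 54.2 ± 3.25% of the lysyl hydroxylase level in AAV-GFP and 54.5 ± 1.84% in AAV-Notum mice, Plod1 40.9 ± 2.38% and 40.1 ± 1.67%, and Plod2 4.91 ± 1.11% and 5.47 ± 0.959% (SD, n = 6 each).

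Colgalt1 (ENSMUSG00000034807, chr8:71610998-71624911, plus strand) encodes the galactosyltransferase that adds galactose to hydroxylysine. It was the only member with a higher mean in AAV-Notum mice among those tested. Its level ran from 101 through 122 to 129 CPM in AAV-GFP and from 95.4 through 128 to 141 CPM in AAV-Notum mice, so that the AAV-GFP mice lay entirely within the AAV-Notum range. The means were 117 ± 12.6 and 122 ± 16.8 CPM (SD, n = 6 each), and the log2 fold change of 0.06 was within the spread between mice (standard error 0.11, 95% interval -0.17 to 0.29, adjusted p = 0.781 from edgeR, exact permutation p = 0.623). With the lymphoid score as a covariate the estimate was -0.05, on the other side of 0. It was 0.017 without mice S_2011 and S_2014 (unadjusted p = 0.894 from edgeR), 0.012 without AAV-Notum mouse S_2031 and 0.12 without AAV-Notum mouse S_2042. Of its exon bases 11.4% are shared with Unc13a on the other strand, and the reads behind the authors' normalized table were 79.0% of those in the raw table, against 98.4% to 104% for the other 9 members. From those reads the log2 fold change was 0.08.

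Pcolce (ENSMUSG00000029718, chr5:137605103-137613784, minus strand) encodes a secreted protein that enhances the cutting of the C-terminal propeptide by Bmp1-type proteinases. It ran from 77.7 through 101 to 158 CPM in AAV-GFP mice and from 65.6 through 69.7 to 95.3 CPM in AAV-Notum mice. As for P4ha1, the AAV-Notum mice other than S_2042 lay below the whole AAV-GFP range. The means were 108 ± 30.5 and 74.3 ± 10.9 CPM (SD, n = 6 each), a log2 fold change of -0.54 (standard error 0.17, 95% interval -0.91 to -0.17, adjusted p = 0.214 from edgeR, exact permutation p = 0.0152). It was -0.38 without mice S_2011 and S_2014 (unadjusted p = 0.0296) and -0.27 with the lymphoid score (unadjusted p = 0.0819). It shares 2.93% of its exon bases with Fbxo24 and as many with Gm36266, an antisense gene.

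Compared per kilobase of exon (RPKM), the members spanned a wide range in AAV-GFP mice. Serpinh1 was first with 127 to 297 RPKM, apart from all others. Crtap (28.8 ± 7.27), Pcolce (28.2 ± 7.98), Colgalt1 (27.1 ± 2.90), Plod3 (24.7 ± 6.91), Plod1 (18.4 ± 3.88) and P4ha1 (13.2 ± 2.87 RPKM, SD, n = 6 each) followed, and each overlapped its neighbour in this order. P4ha2 (4.34 ± 1.21) and Plod2 (2.14 ± 0.408 RPKM) came next, below P4ha1 with no overlap but overlapping each other. P4ha3, at 0.0850 ± 0.0519 RPKM, was last and apart. In AAV-Notum mice the order was the same except that Colgalt1 (28.2 ± 3.88 RPKM) came second, ahead of Crtap (25.1 ± 3.17) and Pcolce (19.4 ± 2.84).

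**Figure D2:**
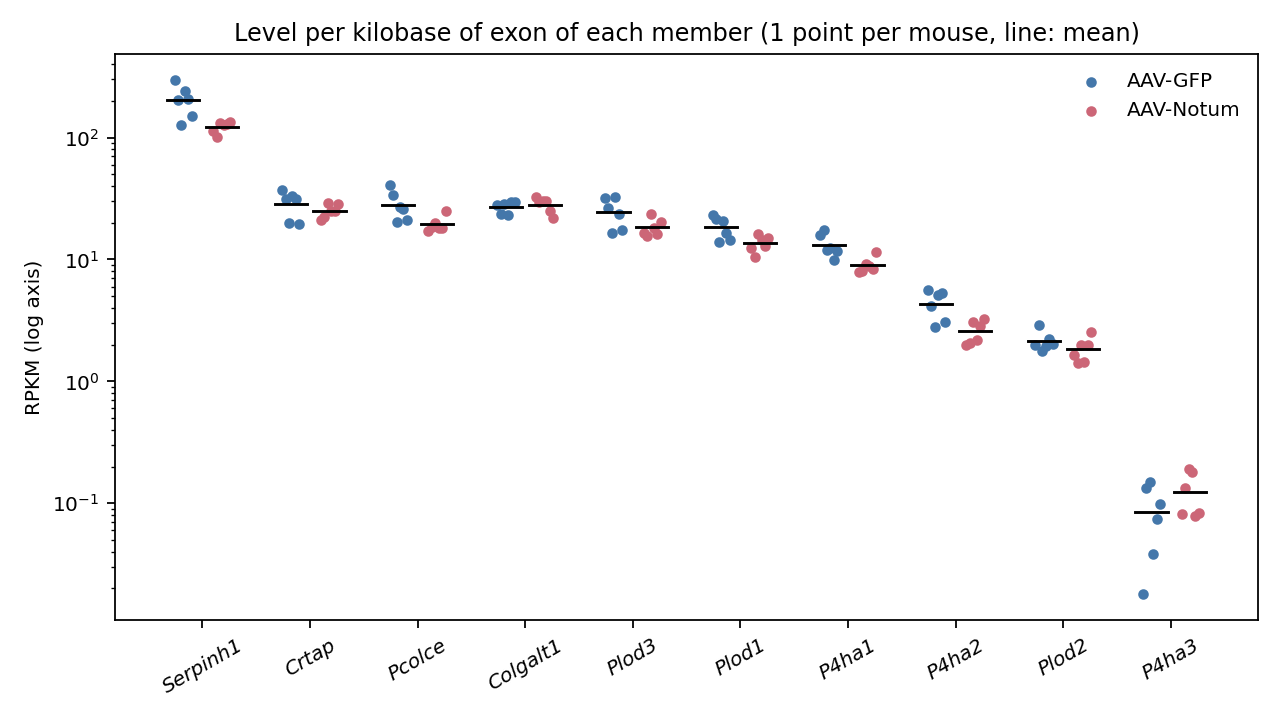
Level per kilobase of exon (RPKM, log axis) of the 10 members in each mouse, with a line at the group mean, in the order of the AAV-GFP means. Serpinh1 lies above 100 RPKM in the mean of both groups (204 and 123), and P4ha3 lies far below the other 9.

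Paralogs were compared by the difference of their log2 CPM within each mouse, over 6 pairs. P4ha1 minus P4ha2 was 1.03 ± 0.479 in AAV-GFP and 1.22 ± 0.207 in AAV-Notum mice (SD, n = 6 each), a difference between groups of 0.19 (exact permutation p = 0.398, adjusted over the 6 pairs 0.517). This difference was 0.046 without AAV-GFP mouse S_2021 and 0.076 without mice S_2011 and S_2014. Plod1 minus Plod3 was 0.17 ± 0.169 and 0.14 ± 0.104, which differed by -0.04 (exact permutation p = 0.656). The groups differed in this pair by -0.084 without S_2014 and by -0.00092 without S_2013. Without both S_2011 and S_2014 they differed by -0.11 (exact permutation p = 0.162). Plod1 minus Plod2 differed by -0.20 between groups (p = 0.238 by the exact permutation test) and Plod2 minus Plod3 by 0.17 (p = 0.431). Plod1 minus Plod2 differed by -0.11 without AAV-GFP mouse S_2011 and by -0.012 without S_2011 and S_2014. Plod2 minus Plod3 differed by 0.055 without S_2014 and by -0.10 without S_2011 and S_2014. Thus no difference in change between Plod1, Plod2 and Plod3 was detectable, although Plod2 alone among them had an unadjusted p over 0.05. The pairs with P4ha3, which rest on its 1 to 10 reads per mouse, differed by -1.01 (P4ha1 minus P4ha3) and -1.20 (P4ha2 minus P4ha3), with exact permutation p = 0.0260 and 0.0411 and 0.123 for both after adjustment over the 6 pairs. Without mice S_2011 and S_2014 these were -0.55 and -0.62 (exact permutation p = 0.105 and 0.162).

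Across mice, the levels of most members went together. AAV-GFP mouse S_2011 had the highest level of all 12 mice for Serpinh1, P4ha2, Plod1, Crtap and Pcolce, mouse S_2012 for P4ha1 and Plod2, and mouse S_2014 for Plod3. Mice S_2013 and S_2022 were the lowest AAV-GFP mice for Serpinh1, P4ha2, Plod1, Plod3, Crtap and Pcolce. Their lymphoid scores were 6.59 and 6.78 log2 CPM, within the range of the AAV-Notum mice, while mice S_2011, S_2012 and S_2014 had the lowest scores of all. The adipocyte score, the mean over 8 markers, had a like order among the AAV-GFP mice: it was 11.3 log2 CPM in S_2014, 11.2 in S_2011, 11.0 in S_2012 and 10.9 in S_2021, and 10.3 and 10.1 in S_2013 and S_2022. In AAV-Notum mice it ran from 10.1 to 11.1 log2 CPM, highest in S_2042, and 7 of the 8 adipocyte markers were lower in their estimates (0 at an unadjusted p under 0.05, median log2 fold change -0.25). Its part in the members' levels was not tested. Mouse S_2011 also had the lowest RIN of all mice (5.7, the next lowest being 6.6). With RIN as a covariate the log2 fold changes were -0.59 for Serpinh1, -0.48 for P4ha1, -0.67 for P4ha2, -0.35 for Plod1, -0.10 for Crtap and -0.40 for Pcolce, with adjusted p-values of 0.332 to 0.831 from edgeR. When mice S_2011 and S_2014 were left out, 4 members were lower at an unadjusted p under 0.05 (Serpinh1, P4ha1, P4ha2 and Pcolce), beside 4.95% of all genes tested in that fit. With the lymphoid score as a covariate there were 3 (Serpinh1, P4ha1 and P4ha2), beside 4.9% of all tested genes. Without mice S_2011 and S_2014 the adjusted p-values of Serpinh1, P4ha1, P4ha2 and Pcolce were 0.527 to 0.643.

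**Figure D3:**
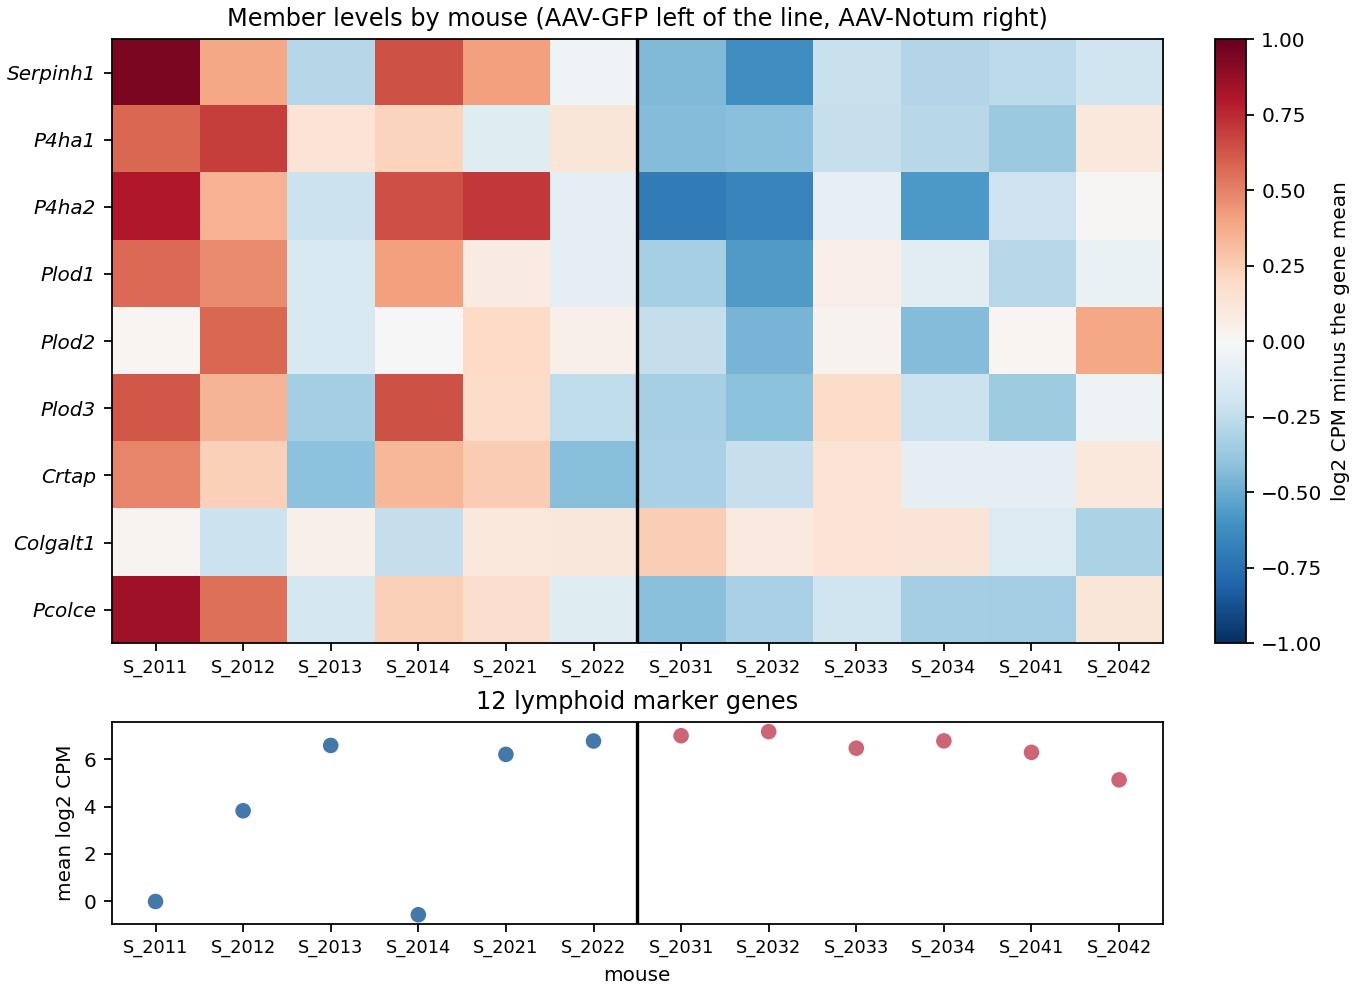
Upper panel: log2 CPM of the 9 tested members minus the gene's mean over the 12 mice (colour), with AAV-GFP mice left and AAV-Notum mice right of the line. Lower panel: mean log2 CPM of 12 lymphoid marker genes in the same mice, lowest in mice S_2011 (-0.02), S_2014 (-0.58) and S_2012 (3.82).

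Fibroblast and progenitor markers, the cells that make most fibrillar collagen, summed to 969 to 1580 CPM in AAV-GFP and 959 to 1206 CPM in AAV-Notum mice, none at 0. Of the 8, 6 were lower and 2 higher, with 2 lower at an unadjusted p under 0.05, Pdgfra (log2 fold change -0.49) and Dcn (-0.39). With their mean as a covariate, 6 members were lower at an unadjusted p under 0.05, beside 8.84% of all tested genes, and the log2 fold change of Serpinh1 was -0.74. The 4 hepatocyte markers, all lower in their estimates (2 at an unadjusted p under 0.05, median log2 fold change -2.80), summed to 44.9 to 4512 CPM in AAV-GFP mice and to 18.6 to 635 CPM in AAV-Notum mice, and the 4 skeletal muscle markers to 5.42 to 611 and 5.09 to 2800 CPM. Their part in the members' differences was not tested. Of the 6 macrophage markers, Cd163 (log2 fold change -0.94, unadjusted p = 7.59e-05, adjusted p = 0.0696 from edgeR) and Mrc1 (-0.40, unadjusted p = 0.0323) were lower at an unadjusted p under 0.05, as were Tek (-0.50, unadjusted p = 0.0340) of the endothelial and Acta2 (-0.61, unadjusted p = 0.00340) of the smooth muscle markers. By direction, 3 macrophage markers were lower and 3 higher (Lyz2 0.57, Csf1r 0.26 and Cd68 0.12), with a median of -0.06. The endothelial markers were 4 lower and 1 higher (median -0.17), and the smooth muscle markers 2 and 2 (median -0.15). The macrophage markers summed to 337 to 1219 and 713 to 1388 CPM, 5 endothelial markers to 526 to 844 and 506 to 664 CPM, 4 smooth muscle markers to 118 to 181 and 98.9 to 144 CPM, and 3 Schwann cell markers to 26.8 to 158 and 16.9 to 164 CPM. Epithelial markers summed to 13.4 CPM at most.

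The spread between mice was measured as the coefficient of variation (CV) of CPM within each group. It was larger in AAV-GFP than in AAV-Notum mice for 7 of the 9 tested members and for 62.8% of all tested genes. The CV of Serpinh1 was 30.1% in AAV-GFP and 10.8% in AAV-Notum mice, where the medians of all tested genes were 21.3% and 18.7%. Colgalt1 (10.7% and 13.8%) and Plod2 (19.0% and 23.3%) were the exceptions. Without mice S_2011 and S_2014 the CV of Serpinh1 in AAV-GFP mice was 22.6%, and 7 members and 52.5% of all tested genes had the larger CV in AAV-GFP mice.

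Members were then compared with the collagen transcripts whose products they act on. Reads of Col1a1, Col1a2 and Col3a1, the main fibrillar collagens, made up 0.411% to 0.667% of the counted reads of AAV-GFP mice and 0.349% to 0.396% of those of AAV-Notum mice. Their log2 fold changes were -0.52 (Col1a1), -0.57 (Col1a2) and -0.53 (Col3a1), with adjusted p = 0.189, 0.157 and 0.236 from edgeR. Without mice S_2011 and S_2014 these were -0.48, -0.55 and -0.45, and with the lymphoid score -0.38, -0.46 and -0.34. With the summed reads of these 3 genes as the library size, 0 of the 9 members had an adjusted p under 0.05 from edgeR, beside 18.7% of all tested genes. On this scale the median log2 fold change of all tested genes was 0.49, since the denominator itself was lower in AAV-Notum mice.

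Per 1000 fibrillar collagen reads, Serpinh1 had 92.7 ± 21.3 reads in AAV-GFP and 80.7 ± 6.77 in AAV-Notum mice (SD, n = 6 each). Its relative log2 fold change was -0.20 (95% interval -0.52 to 0.12, adjusted p = 0.258 from edgeR), and it was -0.086 without AAV-GFP mouse S_2014 and -0.014 without mice S_2011 and S_2014. P4ha2 had 5.08 ± 1.27 and 4.25 ± 0.555 reads, at -0.26 (95% interval -0.62 to 0.11, adjusted p = 0.211), and was at -0.15 and -0.13 in the same fits. P4ha1 (10.2 ± 1.52 and 9.90 ± 0.719 reads) and Pcolce (19.9 ± 1.97 and 19.8 ± 1.20 reads) were close to 0, at -0.05 (95% interval -0.31 to 0.22) and -0.00 (95% interval -0.22 to 0.22). Without mice S_2011 and S_2014 P4ha1 was at -0.04 and Pcolce at 0.09. Plod1 (23.3 ± 3.66 and 24.5 ± 3.24 reads) and Plod3 (21.0 ± 5.56 and 22.3 ± 3.06 reads) were at 0.07 (95% interval -0.21 to 0.36) and 0.09 (95% interval -0.27 to 0.44). Without mouse S_2014 these were 0.17 and 0.25, and without mice S_2011 and S_2014 0.17 and 0.28, where the unadjusted p of Plod3 was 0.0488 and its adjusted p 0.124. Leaving out AAV-Notum mouse S_2033 instead gave 0.028 for Plod1 and 0.016 for Plod3.

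The estimates of Colgalt1, Crtap and Plod2 relative to collagen were above 0 and did not pass the threshold, and those of Crtap and Plod2 lay below the median of all tested genes on this scale (0.49). Colgalt1 had 22.9 ± 6.46 reads per 1000 collagen reads in AAV-GFP and 33.2 ± 7.14 in AAV-Notum mice (SD, n = 6 each), a relative log2 fold change of 0.54 (95% interval 0.09 to 0.99, adjusted p = 0.0651 from edgeR, exact permutation p = 0.0346). Crtap had 9.51 ± 1.91 and 11.9 ± 0.907 reads, at 0.33 (95% interval 0.03 to 0.62, adjusted p = 0.0760, exact permutation p = 0.0260). Plod2 had 2.19 ± 0.358 and 2.64 ± 0.362 reads, at 0.27 (95% interval -0.06 to 0.61, adjusted p = 0.158, exact permutation p = 0.0541), and was at 0.18 without mice S_2011 and S_2014. The groups overlapped for each. The share of all tested genes with an adjusted p under 0.05 on this scale, 18.7% in all mice, itself depended on single mice. It was 0% without AAV-GFP mouse S_2011 or S_2012 or without AAV-Notum mouse S_2031, S_2032, S_2033, S_2034 or S_2041, and 0.00642% without AAV-GFP mouse S_2021. Colgalt1 had an adjusted p under 0.05 without AAV-GFP mouse S_2013 (0.0422), without AAV-GFP mouse S_2022 (0.0339) and without AAV-Notum mouse S_2042 (0.0478), fits in which 41.1%, 47.7% and 24.2% of all tested genes had one. Crtap had one without AAV-GFP mouse S_2014 (0.0215), beside 33.1% of all tested genes, and with reads of all 44 Col genes as the denominator (relative log2 fold change 0.41, adjusted p = 0.0228), beside 36% of all tested genes. Without both mice S_2011 and S_2014 the adjusted p of Crtap was 0.0491 (relative log2 fold change 0.45), beside 8.92% of all tested genes, and that of Colgalt1 0.169 (relative log2 fold change 0.43).

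**Figure D4:**
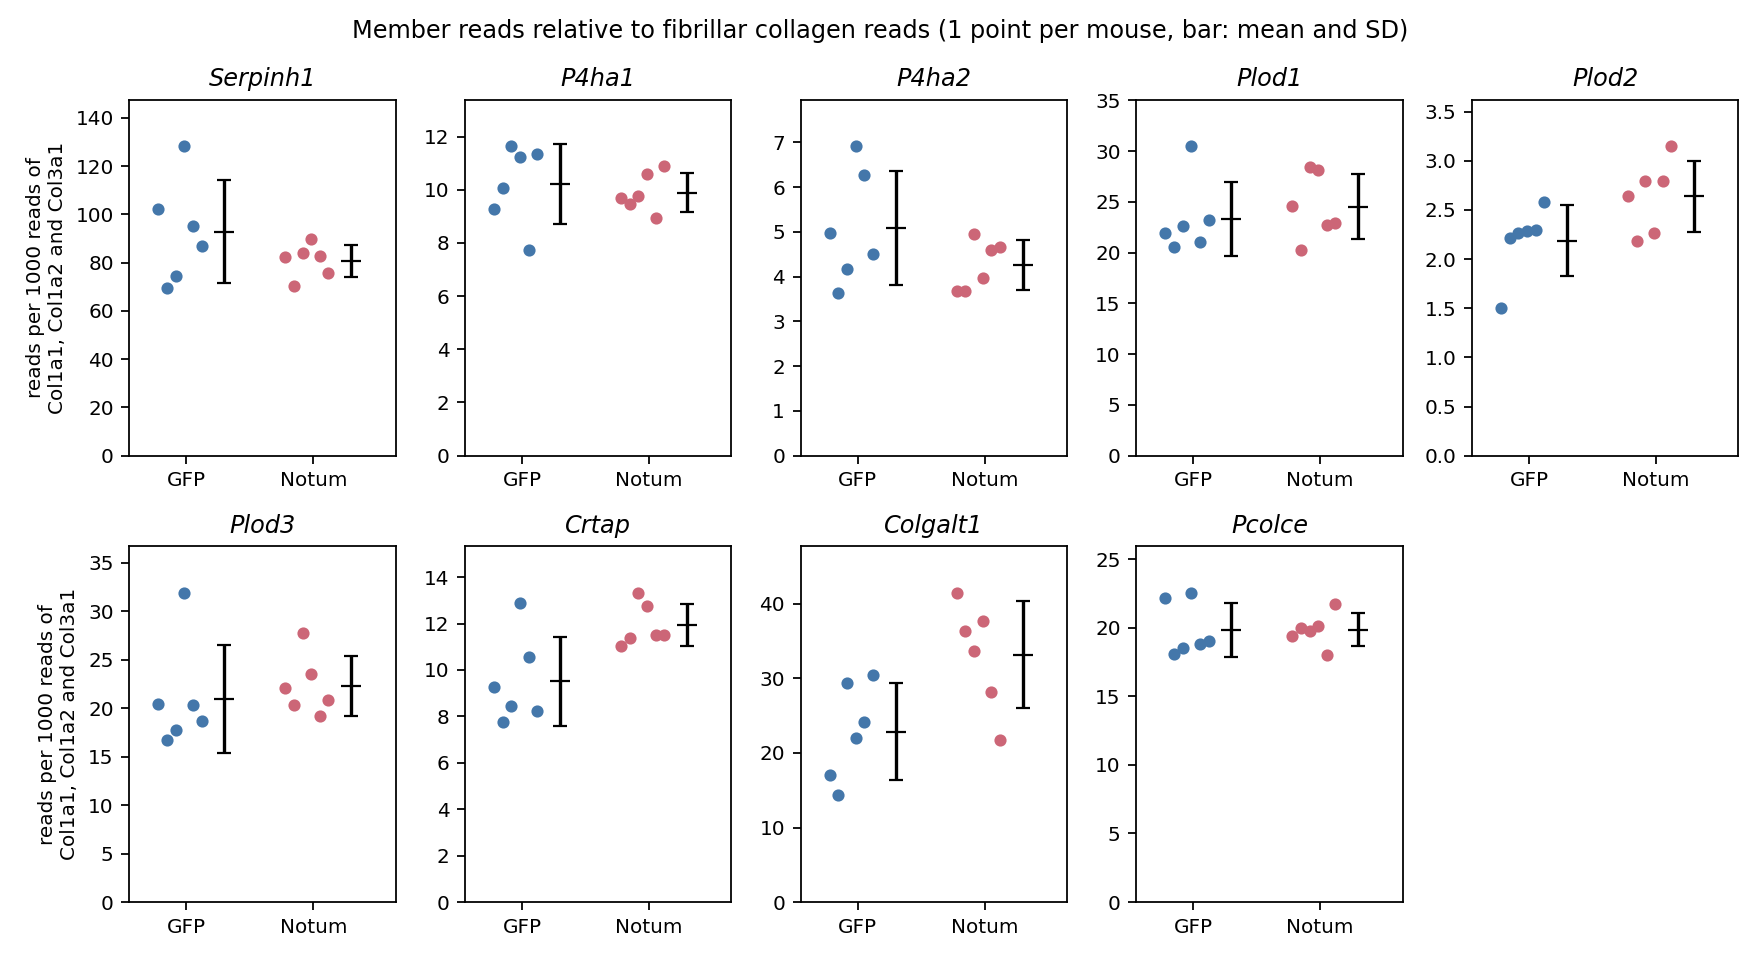
Reads of each tested member per 1000 reads of Col1a1, Col1a2 and Col3a1 (vertical axes, linear from 0, 1 scale per gene), 1 point per mouse, with a dash and bars for the mean and SD. The groups overlap for all 9 genes, and the means of Colgalt1 (22.9 and 33.2) and Crtap (9.51 and 11.9) are higher in AAV-Notum mice.

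The other genes of the pathway were taken as a list of 24 further genes for modification, folding, export and propeptide removal, 23 of them tested. Of these, 19 were lower and 4 higher in AAV-Notum mice, with 6 lower and 0 higher at an unadjusted p under 0.05 (0 at an adjusted p under 0.05) and a median log2 fold change of -0.25. Over all tested genes, the background for this and the next lists, 48.8% were lower, 9.54% were lower and 4.64% higher at an unadjusted p under 0.05, 0.693% had all AAV-Notum mice below all AAV-GFP mice, and the median was 0.01. The 4 of smallest p were Sec24d, Creb3l1, Adamts2 and Bmp1. Sec24d, part of the coat of vesicles that carry procollagen out of the ER, had 55.7 ± 9.96 and 37.4 ± 2.88 CPM (SD, n = 6 each). The groups did not overlap for Sec24d, as for 0.693% of all tested genes (log2 fold change -0.58, adjusted p = 0.101 from edgeR, exact permutation p = 0.00216, the smallest that 6 mice against 6 allow). Creb3l1, an ER-bound transcription factor of collagen genes, was at -0.72 (adjusted p = 0.154), and Adamts2, which removes the N-terminal propeptide, at -0.78 (adjusted p = 0.170). Bmp1, the proteinase that Pcolce enhances, was at -0.45 (adjusted p = 0.173). The partners of Crtap, P3h1 and Ppib, were at -0.44 and 0.03, and P4hb, the beta subunit of prolyl 4-hydroxylase, at -0.29 (adjusted p = 0.293, 0.794 and 0.312 from edgeR). These 3 were named for being partners of members, after their values were seen.

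Among 5 cross-linking genes, 4 were lower and 1 higher, with 3 lower at an unadjusted p under 0.05 and a median of -0.35. Lox, the lysyl oxidase that starts cross-linking from hydroxylysine and lysine, had 96.5 ± 29.5 CPM in AAV-GFP and 44.1 ± 7.86 CPM in AAV-Notum mice (SD, n = 6 each) with no overlap, as for 0.693% of all tested genes (log2 fold change -1.13, adjusted p = 0.0847 from edgeR, exact permutation p = 0.00216). Loxl4 was at -0.59, Loxl2 at -0.35 and Loxl1 at -0.28 (adjusted p = 0.301, 0.340 and 0.405). Of 13 collagen chains, all 13 were lower, 12 of them at an unadjusted p under 0.05, beside 9.54% of all tested genes, with a median of -0.68. The smallest p-values were those of Col6a3 (-0.81), Col6a1 (-0.72), Col5a1 (-0.68) and Col6a2 (-0.68), with adjusted p = 0.106, 0.140, 0.152 and 0.152 from edgeR, and for Col6a3 and Col6a1 the groups did not overlap.

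General ER chaperones, which serve all secreted proteins, were tested as 16 genes. Of these, 13 were lower and 3 higher, with 5 lower and 0 higher at an unadjusted p under 0.05, beside 9.54% and 4.64% of all tested genes, and a median of -0.16. Hyou1 (-0.21), Hspa5 (-0.32), Creld2 (-0.28) and Dnajc3 (-0.18) had the smallest p-values (adjusted p = 0.179, 0.201, 0.266 and 0.328 from edgeR). Hypoxia-induced genes outside the members had estimates of both signs, with 6 of 14 lower and 8 higher, 3 lower and 1 higher at an unadjusted p under 0.05, and a median of 0.03. Pdk1, the kinase that holds back pyruvate oxidation, was higher in every AAV-Notum mouse than in any AAV-GFP mouse, as 0.398% of all tested genes were (log2 fold change 0.55, adjusted p = 0.0686 from edgeR). Ndrg1 (-0.57), Adm (-0.55) and Bnip3 (-0.58) had the next smallest p-values (adjusted p = 0.179, 0.212 and 0.236).

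When mice S_2011 and S_2014 were left out, 11 of the 13 collagen chains, 4 of the 23 other pathway genes, 1 of the 5 cross-linking genes, 5 of the 16 ER chaperones and 2 of the 14 hypoxia-induced genes were lower at an unadjusted p under 0.05, beside 4.95% of all tested genes. Their medians were -0.48, -0.13, -0.29, -0.17 and 0.07. With the lymphoid score as a covariate these counts were 8, 4, 2, 4 and 3, beside 4.9% of all tested genes, and the medians -0.39, -0.03, -0.19, -0.16 and 0.12. In that fit 3 hypoxia-induced genes were higher at an unadjusted p under 0.05, beside 4.11% of all tested genes.

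**Figure D5:**
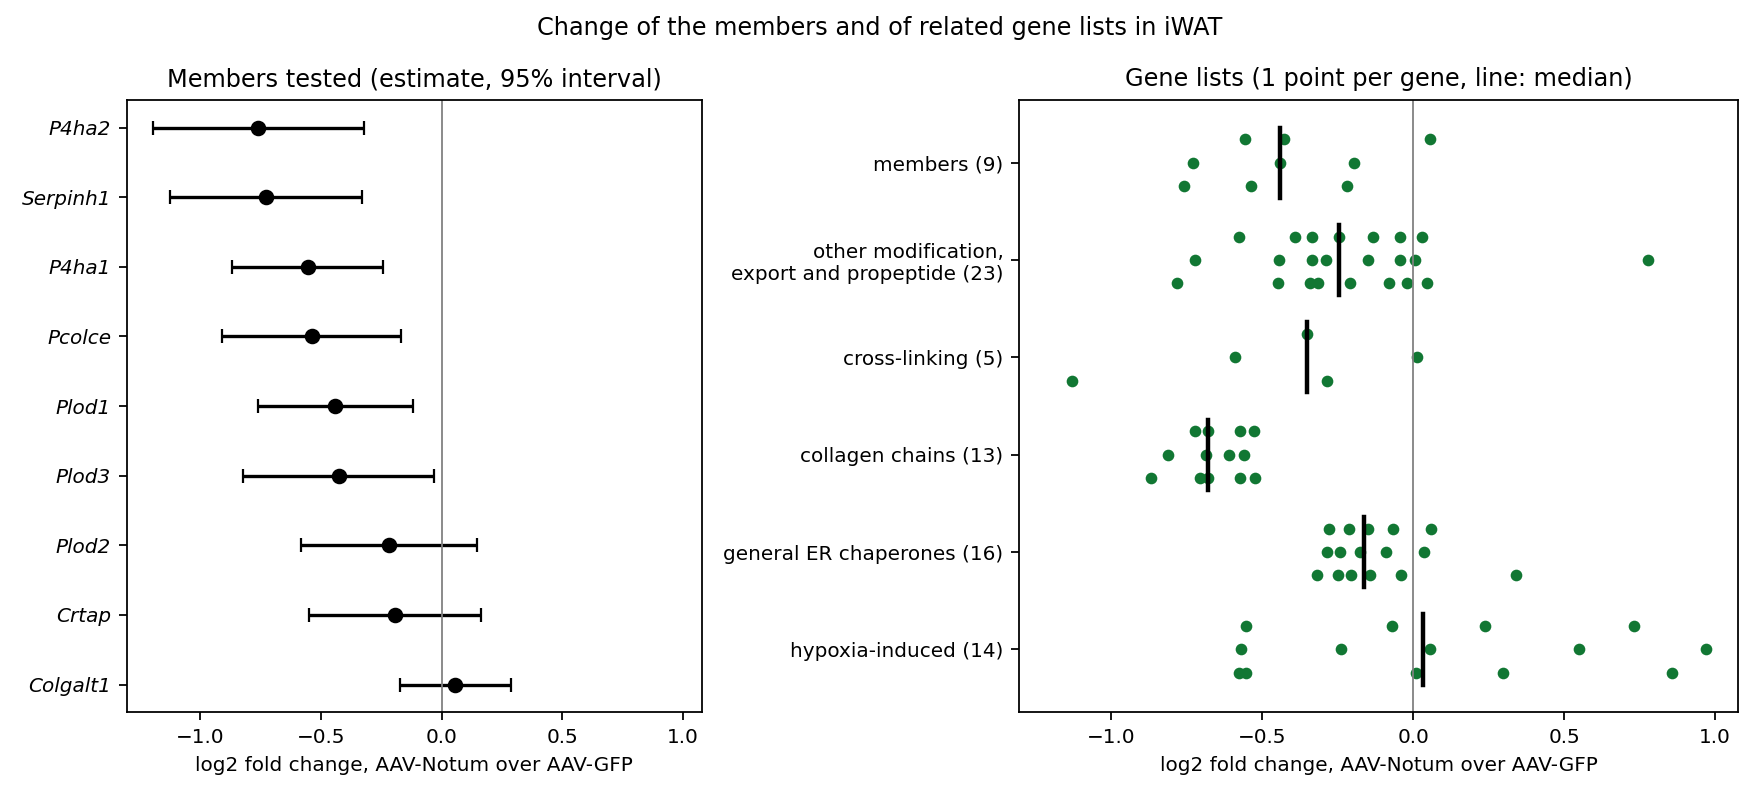
Left: log2 fold change (AAV-Notum over AAV-GFP, 95% interval) of the 9 tested members. Right: log2 fold change of each tested gene in the members and in 5 related lists (number of genes in brackets), with a line at the median; the medians run from -0.68 for the collagen chains to 0.03 for the hypoxia-induced genes, with the members at -0.44.

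The genes whose pattern over the 12 mice was most like that of Serpinh1 were found by the root mean square difference of log2 CPM after each gene was centred on its own mean, where 0 is identical. The closest 5 of all tested genes were Col6a1 (0.105), Col4a2 (0.111), Creb3l2 (0.114), Col5a1 (0.116) and Col6a2 (0.118), and the median over all tested genes was 0.514. Among the members, P4ha2 was closest to Serpinh1 at 0.164, 33rd among all other tested genes. Pcolce (0.197, 82nd), Plod3 (0.197, 84th) and Plod1 (0.199, 91st) followed, then Crtap (0.284) and P4ha1 (0.294). Plod2 (0.402) and Colgalt1 (0.541) were the farthest, Colgalt1 beyond the median of all tested genes. The closest pair of members was Plod1 and Plod3 (0.129), followed by Plod3 and Crtap (0.159), while Colgalt1 was at 0.401 or more from every other member.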

How the data were processed

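RNA-seq of iWAT was analysed in 12 male mice, 6 AAV-GFP and 6 AAV-Notum, grouped by their sample titles. Per the labels and the study's methods, the authors prepared TruSeq libraries, checked single-end reads with FastQC, used STAR 2.3.1 with mm10, and tested for differences with DESeq2. The counting program, its annotation and its use of strand are not given in the sources used here. The authors deposited a table of raw counts per gene, used here, and a table of normalized values, which hold log2 of 1 plus the reads per size factor. Undoing this gave whole reads (within 0.01 reads or a share of 1e-04) for 100% of the values, so that the count test could be repeated on them.

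Counts were tested with edgeR 4.0.16 in R 4.3.3: filterByExpr (minimum count 10, minimum total count 15), TMM normalization, a two-sided quasi-likelihood test and Benjamini-Hochberg adjustment over 15585 genes, with a threshold of 0.05. CPM use the TMM-normalized library size, log2 CPM carry a prior count of 2, and RPKM divide CPM by the exon length of GENCODE vM21 (GRCm38). Exact permutation tests were two-sided over all 924 assignments of the mice. Relative changes used the reads of Col1a1, Col1a2 and Col3a1 as library size. Depth was 14711113 to 21618860 counts per mouse, so the members below 20 CPM carry the most counting error. The p-values measure the spread between mice of 1 experiment.

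The members and lists were chosen with earlier results of these data known, so no p was adjusted over a list. The genes named are the members, the 4 tested genes of smallest p in each list, the 5 genes most like Serpinh1, Notum, Col1a1, Col1a2 and Col3a1; marker genes, P3h1, Ppib, P4hb and overlapping genes are named besides. Lymphoid and fibroblast scores are means of log2 CPM over markers. Alternatives were DESeq2 1.42.0, RLE size factors, filters of at least 1 count in all and of at least 10 counts in every mouse, limma-voom and the authors' normalized log2 values with limma 3.58.1, RIN or a marker score as a covariate, all 44 Col genes as denominator, a prior count of 0.5 and each mouse left out. Added after seeing the data were the recovered reads, the fit without mice S_2011 and S_2014, and the lists in that fit and with the lymphoid score. The fit was tested on simulated counts. Promoter windows come from RefSeq (GRCm38.p6), and no protein sequence was used here. Plots used matplotlib 3.10.9 (Python 3.11.15).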

Additional observations from a re-analysis of the deposited data

Results flagged for a closer look

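In 18 sets of 6 mice (9 tested members in each group), 2 had a mouse far from the others by Dixon's test at the 95% level, and 0.9 are expected by chance. Both were AAV-Notum mouse S_2042. For P4ha1 its 47.6 CPM stood above the 32.8 to 37.8 CPM of the other AAV-Notum mice, a gap of 0.663 of the group's range. For Pcolce its 95.3 CPM stood above 65.6 to 76.2 CPM, a gap of 0.642 of the range. In the same mouse the skeletal muscle markers were highest (mean 9.04 log2 CPM) and the lymphoid markers lowest (5.13) among the AAV-Notum mice; their part was not tested. Without this mouse the log2 fold changes were -0.64 for P4ha1 and -0.62 for Pcolce.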

How the results depend on the processing

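Serpinh1, P4ha1 and P4ha2 were lower with an unadjusted p under 0.05 in all 12 fits that left out a mouse and in all 11 other settings of the same comparison, and Plod2, Crtap and Colgalt1 in none. Leaving out a mouse gave log2 fold changes of -0.83 to -0.59 for Serpinh1, -0.64 to -0.46 for P4ha1 and -0.86 to -0.67 for P4ha2, with 5 to 6 members lower at an unadjusted p under 0.05, beside 6.67% to 13.6% of all tested genes, and 0 members at an adjusted one. With DESeq2 the log2 fold changes were -0.72 (Serpinh1), -0.55 (P4ha1) and -0.76 (P4ha2), and 3 members, 367 genes lower and 84 higher had an adjusted p under 0.05, against 0, 8 and 0 with edgeR. The genes lower and higher were 13 and 1 with RLE, 5 and 0 with the filter of at least 1 count, 14 and 1 with at least 10 counts in every mouse, 4 lower with limma on the authors' values, 10 and 1 with the recovered reads, 4 lower with the lymphoid score and 1 lower without S_2011 and S_2014. Without a mouse they were 1 to 146 lower (146 without AAV-GFP mouse S_2022) and 0 to 12 higher. The lymphoid score turned Crtap to 0.070 and Colgalt1 to -0.047 and left 3 members lower at an unadjusted p under 0.05. Relative to collagen, leaving out a mouse gave 0.43 to 0.64 for Colgalt1, 0.27 to 0.43 for Crtap and -0.030 to 0.038 for Pcolce, with all Col genes P4ha1 was at 0.0061, Crtap at 0.41 and Pcolce at 0.067, and without S_2011 and S_2014 Crtap was at 0.45 and Pcolce at 0.092. P4ha1 minus P4ha3 ran from -1.19 to -0.75 and P4ha2 minus P4ha3 from -1.47 to -0.91 when a mouse was left out. Without S_2011 and S_2014 these were -0.55 and -0.62, and Plod2 minus Plod3 turned to -0.10. The causes were not tested. No paired analysis was possible because the groups share no replicate numbers. Depth limits P4ha3 (1 to 10 reads) and Plod2 (138 to 264 reads) most.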
